A study of Mus musculus with 12 samples.

Results

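The microtubule motor genes examined here are the kinesins (Kif and Klc symbols), the cytoplasmic dyneins (Dync and Dynl symbols) and the dynactin subunits (Dctn symbols). They were selected by symbol alone: 68 of the 24079 genes in the deposited count table matched, and the 64 that had at least 15 reads summed over the 12 libraries are described, out of 17823 genes that passed the same minimum. The members just above this minimum were Dynlt1b with 52 reads, Kif18b with 73 and Dynlt1f with 86, and those below it were Kif12 with 7 reads and Dynlt1c, Kif2b and Kif4-ps with 0.

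Kinesins and cytoplasmic dynein are ATP-driven motors that walk along microtubules in opposite directions. In a neuron, most kinesins carry vesicles, mitochondria and RNA granules away from the cell body into the axon and dendrites, while dynein, which needs the dynactin complex, carries cargo back. Other members work in cilia, at the mitotic spindle, or at the ends of microtubules.

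All libraries came from the hippocampus of Wfs1-CreERT2:RiboTag male mice aged 2 to 6 months, in which a tamoxifen-inducible Cre driven by the Wfs1 promoter adds an HA tag to the ribosomal protein Rpl22. Every mouse received tamoxifen (100 mg/kg on 3 days), the wild-type controls included. The 6 Fmr1-/y libraries came from mice that also lack Fmr1, the gene of the RNA-binding protein FMRP, and the 6 wild-type libraries from mice with the intact gene. Each library was the HA immunoprecipitate of 1 pool of 4 to 6 mice, so that variation between single mice was averaged, and it reports the amount of ribosome-bound mRNA rather than a rate of translation. In such bulk samples, fewer contributing cells and less RNA per cell cannot be told apart.

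Libraries held 39400980 to 65565479 reads on genes. Fmr1 had 1971 to 2608 reads per wild-type library, 0 in 5 Fmr1-/y libraries and 1 in the other. Markers of CA1 pyramidal cells (8 of 8 detected, Wfs1 and Camk2a among them) summed to 8396 to 10422 CPM in wild-type against 8105 to 9636 CPM in Fmr1-/y libraries, where CPM is the count scaled to a common library size after TMM normalization. None of the 8 had the higher mean in Fmr1-/y libraries. RNA of other cells was also present. All 7 astrocyte markers were higher on average in Fmr1-/y libraries (summed, 2231 to 3226 CPM against 2098 to 2424). So were all 5 choroid plexus markers (8305 to 17506 CPM against 6381 to 11864) and all 5 endothelial markers (34.6 to 53.8 CPM against 29.4 to 41.8). The other lists were mostly lower or mixed. Only 1 of 7 oligodendrocyte and 1 of 6 dentate granule markers had the higher mean in Fmr1-/y libraries. The count was 3 of 6 for CA2 and CA3 pyramidal and 4 of 9 for interneuron markers. It was 4 of 6 for microglia, 4 of 6 for dividing cells and 5 of 7 for ependymal and motile cilia markers.

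Levels of different genes were compared per transcript length, in TPM. The 64 members together made up 7940 ± 108 TPM in wild-type and 7777 ± 118 TPM in Fmr1-/y libraries (mean ± SD, n = 6 each). This difference depended on the unit: the Fmr1-/y sum was 97.9% of wild type in TPM, 98.5% in CPM and 100.2% in CPM without TMM normalization. Of the 64 members, 22 had a mean over 100 TPM, 16 lay from 10 to 100 TPM, 13 from 1 to 10 TPM and 13 under 1 TPM. Cargo transport genes filled the top of this order. Genes of cell division filled most of its lower end.

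The light chain Dynll2, which dynein shares with many other protein complexes, had the highest level, with 1443 ± 56.2 TPM in wild-type and 1345 ± 62.5 TPM in Fmr1-/y libraries. Its close paralog Dynll1 reached 312 ± 28.0 and 305 ± 31.2 TPM. The coding sequences of both, taken from GENCODE M21 transcripts on GRCm38, are shown because this pair is the most abundant light chain family of the set and its members can still be told apart by short reads. The first 90 of 270 coding bases are given, with capitals at the 18 positions that differ.
Dynll1: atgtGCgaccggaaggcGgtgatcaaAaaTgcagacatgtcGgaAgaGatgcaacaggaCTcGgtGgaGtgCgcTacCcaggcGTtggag
Dynll2: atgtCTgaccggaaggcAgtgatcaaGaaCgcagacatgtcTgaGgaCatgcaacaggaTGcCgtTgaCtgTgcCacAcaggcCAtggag
Over the whole coding sequence 51 of 270 bases differed (81.1% identical), and the longest identical run was 16 bases. Dynll1 lies on chromosome 5 (115297110 to 115300990) and Dynll2 on chromosome 11 (87979525 to 88003817).

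The Tctex-type light chains were the opposite case. Dynlt1a, Dynlt1b and Dynlt1f are copies on chromosome 17, and their coding sequences are shown because a read can hardly tell them apart. In the first 90 of 342 coding bases, the capital marks the 1 position that differed in the whole sequence.
Dynlt1a: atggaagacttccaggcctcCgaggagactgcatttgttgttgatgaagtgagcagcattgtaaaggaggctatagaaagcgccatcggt
Dynlt1b: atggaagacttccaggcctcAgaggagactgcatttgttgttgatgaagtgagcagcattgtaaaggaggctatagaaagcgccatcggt
Dynlt1f: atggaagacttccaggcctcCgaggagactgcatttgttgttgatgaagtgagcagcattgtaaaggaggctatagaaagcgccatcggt
Of all 50-base stretches in their transcripts, 63.0% were shared with another gene for Dynlt1a, 83.2% for Dynlt1b and 88.6% for Dynlt1f. Dynlt1a had 249 to 404 reads per wild-type and 282 to 560 per Fmr1-/y library, whereas Dynlt1b had 0 to 15 and Dynlt1f 0 to 16 over all 12 libraries. Because reads that align to several copies may have been dropped or split, the levels of these 3 genes are uncertain. The same applies to the mitotic kinesins Kifc1 and Kifc5b, with 39.7% and 37.4% of such stretches shared.

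No motor gene passed an adjusted p of 0.05 by the quasi-likelihood test of edgeR, with Benjamini-Hochberg adjustment over all 17823 genes, against a background of 0.0224% of all genes. The smallest adjusted p was 0.515, for Klc4. DESeq2 called none of the 57 members it gave an adjusted p (smallest 0.360), against 0.571% of the genes it adjusted, and gave none to the 7 others. At an unadjusted p under 0.05 no member was lower, against 3.67% of all genes, and 3 were higher (Klc4, Kif18b and Kif1c), which is 4.69% of the members against 4.29% of all genes. No member had genotypes without overlap, a state reached by 0.623% of all genes.

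The differences were small where the levels were high. Over the 40 members with a mean of at least 10 CPM, the median absolute log2 fold change was 0.04, against 0.07 over the 9693 genes at or above that level. For 33 of these 40, the 95% interval of the Fmr1-/y level lay between 80% and 125% of wild type. The 7 others were Dynlrb2, Kif13a, Kif13b, Kif16b, Kif21b, Kif9 and Klc4. Over the 25 members with at least 100 CPM, the intervals spanned 84.2% to 121% of wild type. In the 13 members under 1 CPM, intervals reached from 23.0% to 1106% of wild type, so that large differences were not detectable at this depth.

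Direction was uneven and depended on scaling. The median log2 fold change was -0.03 over the members and 0.00 over all genes, with 39 members lower and 25 higher in Fmr1-/y libraries. Of all genes, 48.6% were lower, and this share was larger among abundant genes. With at least 10 CPM, 25 of 40 members were lower, beside 50.8% of all genes at that level. With at least 100 CPM, 15 of 25 members were lower, close to the 57.5% of all genes at that level. Without TMM scaling, 32 of 64 members were lower, beside 41.9% of all genes. The medians were then -0.003 for the members and 0.03 for all genes.

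**Figure D1:**
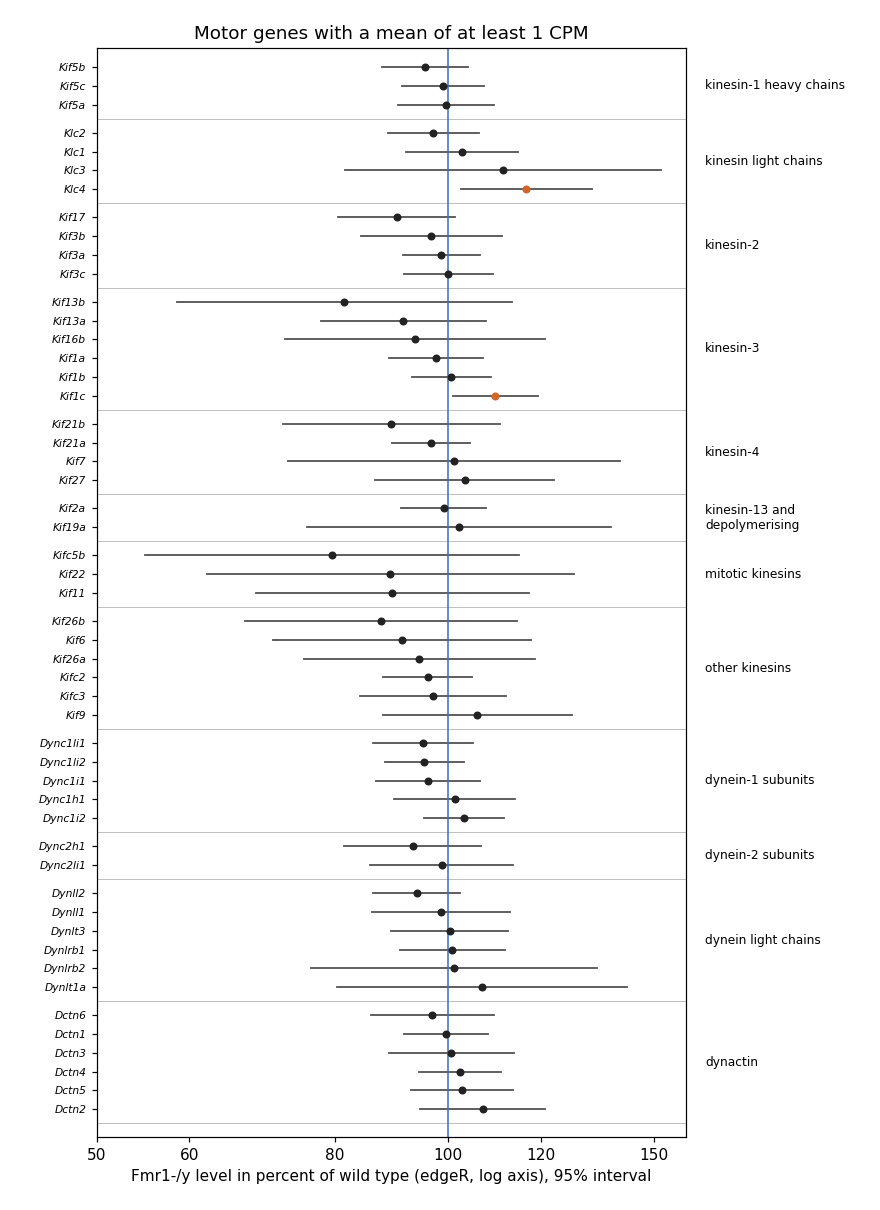
Fmr1-/y level in percent of wild type (log axis) with its 95% interval from edgeR's fit, for the 51 motor genes with a mean of at least 1 CPM, grouped by role. Orange points (Klc4 and Kif1c) have an unadjusted p under 0.05, none passed adjustment, and intervals are narrow for kinesin-1, dynein-1 and dynactin.

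Kinesin-1 is the classical motor of fast transport into axons, built of heavy chains that hold the motor (Kif5a, Kif5b and Kif5c) and light chains that hold the cargo (Klc genes). Kif5a (chromosome 10, 127225695 to 127266348) had 869, 941 and 1042 CPM as the lowest, median and highest wild-type library, and 854, 945 and 1036 CPM in Fmr1-/y. The ranges nearly coincided, and the Fmr1-/y level was 99.6% of wild type (95% interval 90.6 to 110). Kif5c (chromosome 2, 49619286 to 49774778) ranged over 727, 782 and 806 CPM in wild-type against 708, 771 and 845 CPM in Fmr1-/y libraries, a level of 99.0% (91.3 to 107). Kif5b, the form found in most tissues, was lower, at 79.1 ± 6.10 TPM in wild-type libraries, and reached 95.6% of wild type (87.8 to 104) in Fmr1-/y.

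Within kinesin-1, the share of each paralog was compared as well. Per length, Kif5a made up 49.4 ± 1.86% of the heavy chain mRNA in wild-type and 49.7 ± 1.96% in Fmr1-/y libraries (n = 6 each). Kif5c made up 41.2 ± 1.68% and 41.2 ± 1.85%. Two-sided exact permutation tests gave p = 0.792 and p = 0.994, and both adjusted p were 0.994 over the 9 shares tested, where the smallest p this design allows is 0.0022.

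Among the light chains, Klc1 was the most abundant, at 520 ± 40.2 TPM in wild-type and 531 ± 28.1 TPM in Fmr1-/y libraries, followed by Klc2 with 227 ± 10.2 and 219 ± 16.3 TPM. Klc1 made up 69.6 ± 0.987% of the pair in wild-type and 70.8 ± 1.86% in Fmr1-/y libraries (exact permutation p = 0.184, adjusted p = 0.552). Klc3 was scarce, with 2.23, 2.89 and 3.92 CPM in wild-type and 2.40, 2.67 and 5.68 CPM in Fmr1-/y libraries.

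Klc4 (chromosome 17, 46630624 to 46646189), a light chain of lower abundance, had the smallest p of all members. The lowest, median and highest libraries had 13.8, 16.7 and 17.2 CPM in wild-type and 15.9, 19.1 and 21.6 CPM in Fmr1-/y. The ranges overlapped, since Fmr1-/y replicate 6 lay within the wild-type range, while the 5 other Fmr1-/y libraries lay above the highest wild-type library. The log2 fold change was 0.22 ± 0.09 (SE), or 117% of wild type (95% interval 103 to 133), and edgeR gave an adjusted p of 0.515. The adjusted p stayed between 0.343 and 0.853 under the alternatives tried.

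**Figure D2:**
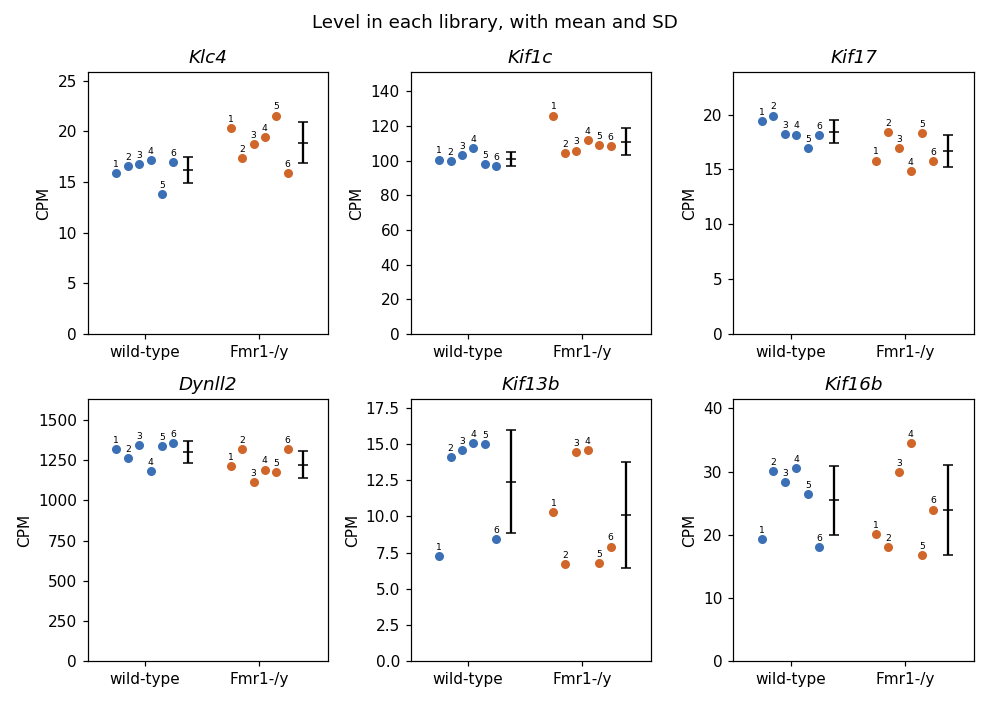
CPM of 6 motor genes in each library, numbered by replicate, with the mean and SD of each genotype (n = 6). Klc4 and Kif1c have the higher means in Fmr1-/y and Kif17 and Dynll2 the lower, with overlap in every panel, and Kif13b and Kif16b spread widely within both genotypes.

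Kinesin-2 motors move cargo in dendrites and build cilia. Kif3a, the shared partner of the heterodimers, had 362 ± 24.6 TPM in wild-type and 354 ± 21.0 TPM in Fmr1-/y libraries, and its Fmr1-/y level was 98.7% of wild type (91.5 to 106). Kif3c and Kif3b, its alternative partners, stood at 117 ± 5.52 and 99.4 ± 14.999 TPM in wild-type libraries. Kif3c made up 54.2 ± 4.40% of this pair in wild-type and 55.1 ± 4.69% in Fmr1-/y libraries (exact permutation p = 0.723, adjusted p = 0.994).

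Kif17, a homodimeric kinesin-2 known for carrying NMDA receptor subunits in dendrites, was 16.2 ± 1.14 TPM in wild-type libraries. Its lowest, median and highest libraries had 17.0, 18.2 and 19.9 CPM in wild-type and 14.9, 16.4 and 18.4 CPM in Fmr1-/y. The log2 fold change of -0.15 ± 0.08 (SE), 90.4% of wild type (80.5 to 101), missed the threshold before adjustment as well (edgeR adjusted p = 0.694), and the genotypes overlapped.

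Kinesin-3 motors carry synaptic and dense-core vesicle precursors and endosomes. Kif1a, the motor of synaptic vesicle precursors, had 708, 789 and 870 CPM in wild-type against 725, 749 and 889 CPM in Fmr1-/y libraries, 97.6% of wild type (89.0 to 107). Kif1b, which also serves mitochondria, had 754, 796 and 865 CPM and 759, 798 and 870 CPM, 101% of wild type (93.1 to 109). Both spread over the same range in the genotypes, and Kif1a made up 63.0 ± 0.660% and 62.3 ± 0.981% of the pair per length (exact permutation p = 0.167, adjusted p = 0.552).

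Kif1c (chromosome 11, 70700396 to 70731970) had an unadjusted p under 0.05. It had 96.9, 100.3 and 107.5 CPM as the lowest, median and highest wild-type library, and 105, 109 and 126 CPM in Fmr1-/y. All 6 Fmr1-/y libraries lay above the wild-type median, with overlap at 1 wild-type library, replicate 4, and the highest value was that of Fmr1-/y replicate 1. The log2 fold change was 0.13 ± 0.06 (SE), 110% of wild type (101 to 119), with an adjusted p of 0.571 in edgeR's test. Without Fmr1-/y replicate 1, the log2 fold change was 0.09, the adjusted p in edgeR's test was 0.861 and the unadjusted p was no longer under 0.05. That library also had the highest astrocyte, choroid plexus and ependymal marker sums (3226, 17506 and 310 CPM). Its microglia and dividing cell sums (106 and 7.62 CPM) were the highest as well, while those of the remaining lists were not. Its CA1 pyramidal sum was 8359 CPM, and only Fmr1-/y replicate 4 had less. The part of cell composition in the difference was not tested.

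Members differed in how much they varied between libraries of the same genotype. Over the 40 members with at least 10 CPM, the coefficient of variation within a genotype, averaged over both, had a median of 8.32% and exceeded 20% in 4 genes. They were Kif13b (32.4%), Dynlrb2 (29.6%), Kif16b (25.5%) and Kif21b (21.1%), followed by Kif9 (17.9%) and Kif13a (14.8%), where counting error alone would give 4.36% for Kif13b and 1.49% for Kif21b. These genes were singled out after their values were seen.

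Kif13b, a kinesin-3 bound to membrane scaffold proteins, had 7.25 and 8.47 CPM in wild-type replicates 1 and 6, and 14.1 to 15.1 CPM in the 4 other wild-type libraries. In Fmr1-/y it had 14.4 and 14.6 CPM in replicates 3 and 4, and 6.70 to 10.3 CPM in the 4 others. The endosomal motor Kif16b and the dendritic kinesin-4 Kif21b were arranged alike, with wild-type replicates 1 and 6 lowest and Fmr1-/y replicates 3 and 4 highest in their genotypes. Kif16b ran from 18.1 to 30.6 CPM in wild-type and from 16.8 to 34.6 CPM in Fmr1-/y libraries. Kif21b ran from 67.4 to 117 CPM and from 65.97 to 116 CPM. The TMM factors of wild-type replicates 1 and 6 were 0.965 and 0.964, the lowest of their genotype. Those of Fmr1-/y replicates 3 and 4 were 1.03 and 1.05, and Fmr1-/y replicate 1, with Kif13b at 10.3 CPM, had 1.03. CPM is divided by this factor, so scaling raised the values of wild-type replicates 1 and 6 and lowered those of Fmr1-/y replicates 3 and 4. The cause of this spread was not tested. For Kif13b the genotype difference was -0.30 ± 0.23 (log2, SE), or 81.5% of wild type with an interval of 58.5 to 113.

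Among the kinesin-4 genes, Kif21a, a motor that also dampens microtubule growth, was the more abundant, at 111 ± 6.85 TPM in wild-type and 106 ± 3.49 TPM in Fmr1-/y libraries. It made up 77.0 ± 3.56% and 78.3 ± 4.05% of the pair with Kif21b (exact permutation p = 0.541, adjusted p = 0.974). The kinesin-13 Kif2a, which trims microtubule ends and limits axon branching, had similar ranges in both genotypes, with 72.5, 80.4 and 83.2 CPM in wild-type and 72.9, 79.2 and 85.1 CPM in Fmr1-/y libraries (99.1% of wild type, interval 91.1 to 108).

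Of the minus-end kinesins, Kifc2 was abundant, with 295 ± 15.6 TPM in wild-type and 281 ± 26.2 TPM in Fmr1-/y libraries, and Kifc3 reached 29.6 ± 3.31 and 28.6 ± 3.25 TPM. Kif26b, an atypical kinesin, had 4.90, 6.79 and 7.36 CPM in wild-type and 3.68, 5.24 and 8.25 CPM in Fmr1-/y libraries, and its interval of 66.9% to 115% of wild type was wide.

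**Figure D3:**
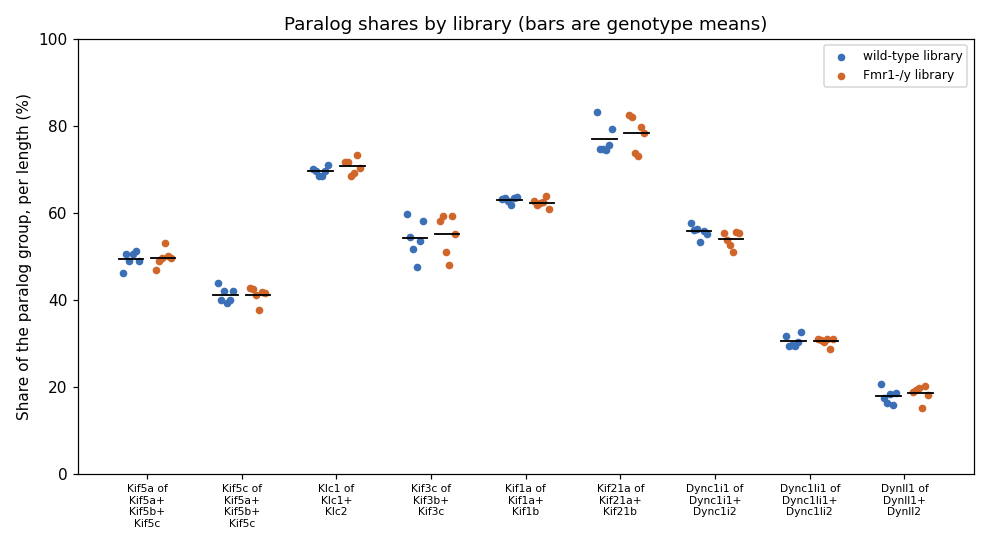
Share of the first gene in its paralog group, per transcript length, in percent. Points are the 6 wild-type (blue) and 6 Fmr1-/y (orange) libraries and bars are genotype means, which differ by at most 1.79 points (Dync1i1).

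Cytoplasmic dynein-1 is built on the heavy chain Dync1h1, with intermediate chains (Dync1i1, Dync1i2) that bind dynactin and light intermediate chains (Dync1li1, Dync1li2) that bind cargo adaptors. Dync1h1 (chromosome 12, 110601395 to 110666944) had 250, 284 and 297 CPM in wild-type against 229, 280 and 337 CPM in Fmr1-/y libraries. The Fmr1-/y range enclosed the wild-type range, and the level was 101% of wild type (89.9 to 114). Summed over the 5 subunits, dynein-1 mRNA stood at 738 ± 18.5 TPM in wild-type and 715 ± 17.2 TPM in Fmr1-/y libraries, with ranges of 702 to 754 and 699 to 747 TPM. The difference depended on the unit. The Fmr1-/y sum was 96.9% of wild type in TPM, 98.2% in CPM and 99.8% in CPM without TMM normalization.

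The neuronal intermediate chain Dync1i1 had 195 ± 10.1 TPM in wild-type and 186 ± 9.73 TPM in Fmr1-/y libraries, and Dync1i2, found in all tissues, had 155 ± 5.38 and 159 ± 6.09 TPM. Dync1i1 thereby made up 55.7 ± 1.45% of the pair in wild-type and 53.9 ± 1.87% in Fmr1-/y libraries. Of the 9 shares this difference of -1.79 points was the largest and had the smallest p (exact permutation p = 0.0844, adjusted p = 0.552), so it did not pass. The light intermediate chain Dync1li1 made up 30.5 ± 1.37% and 30.5 ± 0.879% of its pair (exact permutation p = 0.989, adjusted p = 0.994). Dync1li2 was the more abundant, with 229 ± 7.16 and 217 ± 7.08 TPM.

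Among the light chains, Dynll2 had 1181, 1329 and 1358 CPM in wild-type against 1113, 1203 and 1322 CPM in Fmr1-/y libraries. All 6 Fmr1-/y libraries lay below the wild-type median, yet the genotypes overlapped and the difference did not pass (94.0% of wild type, interval 86.3 to 102, edgeR adjusted p = 0.775). Dynll1 had 201, 215 and 275 CPM and 170, 232 and 254 CPM, and its share of the pair was 17.8 ± 1.73% and 18.5 ± 1.86% (exact permutation p = 0.502, adjusted p = 0.974). The roadblock light chain Dynlrb1 stood at 445 ± 19.1 TPM in wild-type and 445 ± 28.8 TPM in Fmr1-/y libraries.

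Dynactin activates dynein and links it to cargo. Its Dctn subunits ran from 40.5 ± 1.64 TPM for Dctn4 to 453 ± 44.5 TPM for Dctn2 in wild-type libraries. The largest subunit, Dctn1 (chromosome 6, 83165909 to 83200118), which grips the microtubule, had 317, 347 and 367 CPM in wild-type against 318, 345 and 362 CPM in Fmr1-/y libraries, 99.6% of wild type (91.7 to 108). Dctn2, the dynamitin subunit that holds the complex together, had 227, 256 and 320 CPM and 251, 292 and 314 CPM, 107% of wild type (94.7 to 121), and Dctn5 reached 103% (92.9 to 114). None of the 6 subunits passed the test.

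Dynein-2 and several kinesins serve cilia. Dync2li1 and Dync2h1, subunits of the dynein that returns material from the ciliary tip, had 69.5 ± 4.45 and 3.78 ± 0.282 TPM in wild-type libraries and 68.0 ± 8.79 and 3.50 ± 0.547 TPM in Fmr1-/y. Some other ciliary members varied with markers of ependymal cells, the ciliated cells that line the ventricles. The 7 ependymal and motile cilia markers detected, of 8 listed, summed to 310 CPM in Fmr1-/y replicate 1, 260 CPM in wild-type replicate 4 and 155 to 214 CPM in the 10 others.

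Over the 12 libraries, Pearson's r with this sum was 0.947 for the roadblock light chain Dynlrb2 (Spearman's rho 0.881), 0.821 for Kif6 (rho 0.755), 0.817 for Kif9 (rho 0.273) and 0.806 for Kif19a, which shortens ciliary microtubules (rho 0.587). Permutation tests with 100000 resamples gave p of 5.00e-05, 0.00162, 0.0114 and 0.0011 for r, adjusted over 7 members to 0.00035, 0.00378, 0.0199 and 0.00378. The permutation p for rho were 0.00042, 0.00631, 0.392 and 0.0495, adjusted to 0.00294, 0.0221, 0.457 and 0.116. Without the 2 libraries farthest from the median of the marker sum, r was 0.768 for Dynlrb2, 0.708 for Kif6, 0.535 for Kif19a and -0.17 for Kif9, whose relation therefore rested on those libraries. Within wild-type and within Fmr1-/y libraries, r was 0.935 and 0.962 for Dynlrb2 and 0.904 and 0.884 for Kif6, but also 0.865 and 0.880 for Kif9, since each genotype holds 1 of those libraries. Within Fmr1-/y libraries without replicate 1, r was 0.719 for Dynlrb2, 0.836 for Kif6 and -0.27 for Kif9. Kif27, Dync2li1 and Dync2h1 had r of 0.465, 0.339 and 0.196, with permutation p of 0.111, 0.276 and 0.559 (adjusted 0.155, 0.322 and 0.559).

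Dynlrb2 had 24.1 CPM in Fmr1-/y replicate 1 and 20.7 CPM in wild-type replicate 4, against 9.58 to 16.8 CPM in the 10 others. Kif9 had 19.8 and 20.3 CPM in these libraries, against 12.2 to 15.5 CPM. Between genotypes, Dynlrb2 was at 101% of wild type (76.3 to 134) and Kif6 at 91.3% (70.8 to 118).

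**Figure D4:**
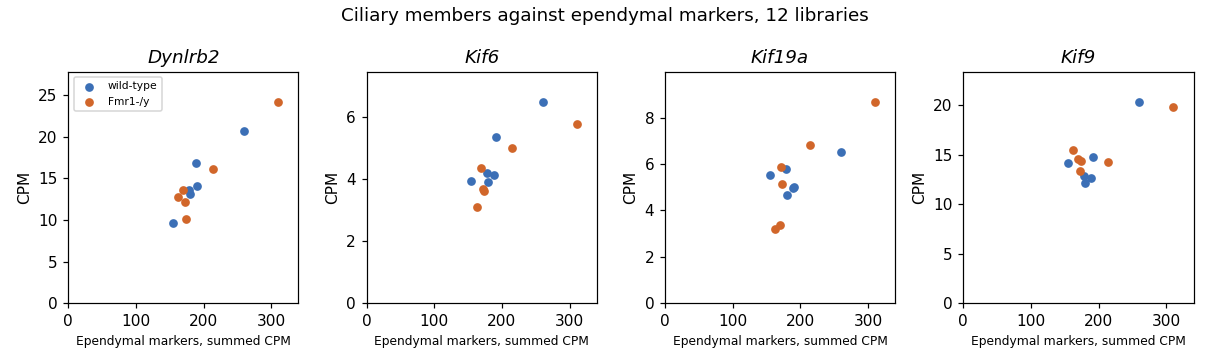
CPM of 4 ciliary motor genes against the summed CPM of 7 ependymal markers, 1 point per library (blue wild-type, orange Fmr1-/y). Fmr1-/y replicate 1 (310 CPM) and wild-type replicate 4 (260 CPM) stand to the right, and Kif9 is flat among the 10 others.

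Kinesins of the mitotic spindle had low counts, as did markers of dividing cells (5.33 to 7.62 CPM summed over 6 markers). The 8 mitotic kinesins summed to 8.44 ± 0.61 CPM in wild-type against 7.57 ± 0.81 CPM in Fmr1-/y libraries. Kif11, which pushes spindle poles apart, had 2.07, 2.60 and 3.18 CPM in wild-type and 1.75, 2.36 and 3.27 CPM in Fmr1-/y libraries. Kif22, a chromosome-binding kinesin, had 0.719, 1.204 and 1.65 CPM and 0.794, 1.04 and 1.49 CPM. Kifc5b had the lowest fold change among members with at least 1 CPM (-0.33 ± 0.25 on the log2 scale, SE, 79.5% of wild type with an interval of 55.0 to 115), with the uncertainty of its shared sequence.

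Kif18b (chromosome 11, 102905518 to 102925134), a kinesin that shortens astral microtubules in dividing cells, had the largest fold change of all members and very few reads. In replicates 1 to 6 it had 2, 1, 6, 4, 0 and 1 reads in wild-type libraries and 10, 8, 11, 16, 13 and 1 in Fmr1-/y libraries. In Fmr1-/y, replicates 1 to 5 were above every wild-type library and replicate 6 was not. The log2 fold change was 1.84 ± 0.77 (SE), with an adjusted p of 0.550 in edgeR's test. Its paralog Kif18a, named after its values were seen, had 9, 14, 3, 16, 6 and 9 reads in wild-type and 19, 6, 35, 20, 34 and 25 in Fmr1-/y libraries (edgeR adjusted p = 0.648).

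The adaptors and regulators that couple these motors to cargo were read from a fixed list of 64 genes, of which 61 were tested. None passed an adjusted p of 0.05 in edgeR's or DESeq2's test (smallest 0.358 and 0.131). At an unadjusted p under 0.05, 2 were lower and 0 higher, and these 3.28% lay close to the 3.67% of all genes that were lower, while 4.29% of all genes were higher. Clstn2, a calsyntenin that binds kinesin light chains, had 79.0, 89.2 and 104 CPM in wild-type and 70.8, 77.7 and 82.9 CPM in Fmr1-/y libraries, with overlap (log2 fold change -0.22 ± 0.07, SE, adjusted p = 0.358 in edgeR's test). Ppfia4, a liprin that binds Kif1 motors, had 97.3, 107.4 and 113.8 CPM and 88.1, 98.3 and 100.6 CPM, again with overlap (-0.14 ± 0.06, adjusted p = 0.531 in edgeR's test). The 2 higher genes with the smallest p, the dynein regulators Hook2 and Nde1, stood at 114% (94.99 to 138) and 108% (90.2 to 129) of wild type. The median log2 fold change was -0.04 over the 34 genes listed as kinesin adaptors and -0.002 over the 21 listed as dynein regulators. Of these, 26 and 11 genes were in the lower direction. Both lists are broad. The dynein list also held Map7 family genes, and the kinesin list held Htt, Hap1 and Trak genes, so no contrast between the motors is drawn. The lower direction held 76.5% of the listed kinesin adaptors, of which 33 had at least 10 CPM. Beside this stood 48.6% of all genes, 50.8% of genes with at least 10 CPM and 57.5% of genes with at least 100 CPM. The count of lower adaptors was 23 (67.6%) without scaling, where 41.9% of all genes were lower. It was 29 (85.3%) with DESeq2's size factors, where 48.9% of all genes were lower. The adaptors' median log2 fold change was -0.0437 with TMM, -0.0449 with DESeq2's size factors and -0.0197 without scaling.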

How the data were processed

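Per the labels, HA-Rpl22 ribosomes were immunoprecipitated from hippocampi and their RNA was sequenced from stranded libraries. The authors deposited raw read counts per gene, without normalization. The submitters' processing notes name bcl2fastq 2.17, TopHat2 2.1.1, Bowtie2 2.2.8, HTSeq 0.6.1p1 and mm10. Libraries of 39400980 to 65565479 reads leave little counting error for members above 10 CPM, and a large one under 1 CPM.

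Genes with at least 15 reads in total were kept. Genotypes were compared with edgeR 4.0.16 (TMM, quasi-likelihood test, no block) in R 4.3.3, with Benjamini-Hochberg adjustment over 17823 genes and a threshold of 0.05. The step was tested on simulated data. The changes planted there were larger than any found in members with at least 1 CPM, so differences of that smaller size were not covered. Standard errors and intervals derive from the F statistic. Paralog shares used two-sided exact permutation tests over libraries. TPM was computed from GENCODE M21 transcript lengths, and coordinates are RefSeq's on GRCm38, the build of mm10. Shared sequence was searched in 50-base stretches. Replicates are pools of separate mice. Per the study's methods, 4 libraries shared a lane, but which ones is not given in the sources used here, so no batch was fitted.

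The members, role lists and marker lists were chosen with earlier results of these data known. Members were named by unadjusted p under 0.05, by the 2 highest levels per role, by paralog group, by the 3 lowest and 3 highest fold changes from 1 CPM, and by ciliary or mitotic role. Partner genes were named by smallest p. Dync1h1, Dctn1, Dctn4, Kif13a, Kif16b, Kif17, Kif18a, Dynlt1a, Dynlt1b and Dynlt1f fall outside this rule and were chosen after their values were seen. Alternatives were DESeq2 1.42.0 and its size factors, no scaling, other count filters, limma 3.58.1 voom, the replicate number as a block, and each library left out. Protein sequences were not used here.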

Additional observations from a re-analysis of the deposited data

Results flagged for a closer look

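In 12 of 146 groups of 6 libraries examined (members with values in the text, paralog shares and role sums), 1 library stood apart by Dixon's ratio, the gap to its nearest neighbour divided by the range. Chance would give about 7.3. Fmr1-/y replicate 5 was high for Kif1a (889 CPM, the others 725 to 761, ratio 0.784) and for the summed kinesin-3 genes that include it (1919 CPM, the others 1672 to 1753, ratio 0.672). It was low for the Dync1li1 share (28.7%, the others 30.4 to 31.0%, ratio 0.720). Fmr1-/y replicate 1 was high for Kif1c (126 CPM, the others 105 to 112, ratio 0.654) and for Kif9 (19.8 CPM, the others 13.4 to 15.5, ratio 0.675). Wild-type replicate 4 was high for Kif9 (20.3 CPM, the others 12.2 to 14.7, ratio 0.683). It was low for Kifc2 (302 CPM, the others 341 to 352, ratio 0.777) and for the summed other kinesins that include it (375 CPM, the others 411 to 422, ratio 0.762). Fmr1-/y replicate 4 was low for the Kif5c share (37.6%, the others 41.0 to 42.7%, ratio 0.671) and high for Kifc1 (1.17 CPM, the others 0.476 to 0.644, ratio 0.757). Wild-type replicate 2 was low for the summed kinesin-13 and depolymerising kinesins (79.1 CPM, the others 86.2 to 89.2, ratio 0.703). Wild-type replicate 6 was high for Dync1i2 (160 CPM, the others 137 to 146, ratio 0.6253).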

How the results depend on the processing

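No member and no partner gene passed an adjusted p of 0.05 under any of the 19 alternatives. Among the 55 genes examined over 1042 comparisons, the sign changed in 72 comparisons of 21 genes, none of them called. Without scaling, the members' median log2 fold change moved to -0.0034, and that of all genes moved from 0.0042 to 0.0285. The log2 fold changes of Dctn1 (0.0175), Dync2li1 (0.00608), Dynll1 (0.00351), Kif2a (0.0121), Kif3a (0.00427), Kif5a (0.0170) and Kif5c (0.00817) then turned positive. Voom gave -0.0290 for Kif19a, -0.0232 for Dynlt1b and -0.00571 for Dynlrb2, and DESeq2's size factors and test gave -0.000266 and -0.000276 for Kif3c. The filterByExpr filter left 59 members. Same-numbered libraries deviated together only weakly, with a mean r of 0.02 over all genes. For genes with a mean log2 CPM over 5 the mean r was 0.15, and pairs ranged from -0.44 to 0.60. The numbers were therefore not taken as pairs. With the replicate block, 0 members passed, 3 were higher and 0 lower at an unadjusted p under 0.05, and the log2 fold changes were -0.0393 for Kif19a and -0.00355 for Dynlrb2. The block changed no call. Leaving out 1 library at a time gave 0 to 1 lower members (1 without Fmr1-/y replicate 2 or 5) and 1 to 4 higher members (1 without wild-type replicate 2, 5 or 6) at an unadjusted p under 0.05. Log2 fold changes then ranged from -0.0289 to 0.0147 (Dctn1), -0.0406 to 0.0708 (Dync1h1), -0.0677 to 0.0445 (Dync2li1), -0.0582 to 0.0489 (Dynll1), -0.0346 to 0.0451 (Dynlrb1), -0.179 to 0.141 (Dynlrb2), -0.0659 to 0.187 (Dynlt1a), -0.454 to 0.149 (Dynlt1f), -0.145 to 0.146 (Kif19a), -0.0146 to 0.0333 (Kif1b), -0.0375 to 0.00793 (Kif2a), -0.0332 to 0.0986 (Kif27), -0.0332 to 0.0227 (Kif3c), -0.0332 to 0.0223 (Kif5a), -0.0440 to 0.00761 (Kif5c), -0.00423 to 0.204 (Kif9), -0.300 to 0.121 (Kifc1), -0.0892 to 0.0268 (Kifc3) and -0.0677 to 0.247 (Klc3). Share differences ranged from -0.34 to 0.87 points (Kif5a), -0.38 to 0.70 (Kif5c), -0.40 to 2.34 (Kif3c) and -0.24 to 0.42 (Dync1li1). The cause of these changes was not tested.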
